A study of Mus musculus with 26 samples.

Results

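The signal of 10 genes that astrocytes use for structure, secretion and transport was followed in mouse neural stem cells carrying MYB, QKI or MYBQKI constructs. The genes were Gfap, Hepacam, S100b, Agt, Apoe, Aqp4, Slc4a4, Slc1a2, Slc1a3 and Aldh1l1, taken by name. They were chosen with earlier results of these data known. Each was represented by the probe sets of the array whose annotation names it and no other gene. These were 128 of the 269751 probe sets and 10 of the 23152 genes measured. Gfap, Hepacam, S100b, Agt, Apoe and Aqp4 were lower with the MYB constructs than with the control protein eGFP in every pool of cells, and Slc4a4 was higher in every pool. Slc1a2, Slc1a3 and Aldh1l1 did not keep 1 direction over the 9 columns of the 3 MYB constructs, and none of the 10 was called with QKItr. Without the pool as a block only Gfap and Hepacam were called against eGFP, and with it 7 of the 10 were. For the mean of the 3 MYB constructs the share of all genes called was 2% without the block and 7.07% with it.

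Astrocytes support neurons by clearing transmitter, buffering ions and water and supplying lipids, and neural stem cells of the embryonic brain already share part of this programme with them. Gfap forms intermediate filaments and is the classical astrocyte marker, induced through gp130 cytokine receptors and STAT3. The other members act at the membrane (Hepacam, Aqp4, Slc4a4, Slc1a2 and Slc1a3), as secreted proteins (Agt and Apoe) or in the cytosol (S100b and Aldh1l1).

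The cells had been isolated from C57BL6 wild-type mouse embryos at E14.5 and carried lentiviral transgenes. MYBQKI is a fusion of the transcription factor MYB with the RNA-binding protein QKI, known from angiocentric glioma. The pool set covered pools 1 to 3 of cells. Each pool had 1 array for MYBtr, for MYBQKI5, for MYBQKI6 and for QKItr, and 2 repeat arrays for the control protein eGFP, which were averaged, so each group had 3 columns. In the suppression set every sample carried MYBQKI6, and 5 samples were labelled as Qk suppressed and 3 as suppressed for LacZ, a bacterial control target. The meaning of tr, the species of the transgenes, the means of suppression and the origin of the pools (separate animals or cultures) are not given in the labels. The p-values therefore reflect only how far these samples spread, which may be technical.

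Values are log2 signals, and a gene's value is the mean over its probe sets. Array medians were 5.61 to 5.74 for the 18 pool arrays and 5.39 to 5.51 for the 8 suppression arrays. Myb itself read 4.62 ± 0.49 (SD, n = 3) with eGFP and 7.23 ± 0.12, 6.99 ± 0.31 and 7.46 ± 0.40 with MYBtr, MYBQKI5 and MYBQKI6 (n = 3 each). Qk was 0.25 higher with QKItr than with eGFP (95% interval -0.12 to 0.61), which was not called. As a check of the labelled cell type, 10 of 11 neural stem cell markers lay above the median gene signal of the eGFP columns, 4.99, against 2 of 12 microglia and immune markers (Cd68 and Cx3cr1), 3 of 14 vascular and fibroblast markers and 1 of 11 markers of myelinating oligodendrocytes (Cnp). Of oligodendrocyte precursor markers 7 of 12 lay above it, with Olig1 at 11.13 and Olig2 at 11.60, and of neuron markers 6 of 13, with Map2 at 9.99. Of the 10 astrocyte genes, 9 lay above that median, and Aqp4, at 4.95, lay just below it.

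Throughout, a gene or probe set was called when its Benjamini-Hochberg adjusted p in limma, taken over all features of that comparison, was under 0.05. Samples of the same pool proved alike, so calls from a fit with the pool as a block are given beside those without it, for each of the 10 genes and as counts for the other gene lists. With MYBtr, 2 of the 10 genes were called, Gfap and Hepacam, both lower, against 1.37% of all genes called in either direction. With the pool block 7 were called, Gfap, Aqp4, S100b, Agt, Apoe and Hepacam lower and Slc4a4 higher, against 5.97% of all genes. With MYBQKI5 none of the 10 was called (0.199% of all genes), though 6 had an unadjusted p under 0.05, and with the block 4 were called, Gfap, S100b and Agt lower and Slc4a4 higher (2.63% of all genes). With MYBQKI6 none was called either (0.765% of all genes), 6 had an unadjusted p under 0.05, and with the block Gfap, Agt, Apoe and Hepacam were called lower and Slc4a4 higher (4.39% of all genes). The median log2 change of the 10 genes was -0.90 with MYBtr, -0.52 with MYBQKI5 and -0.54 with MYBQKI6, beside -0.014, -0.0066 and -0.0049 over all genes. These comparisons share the eGFP columns. The mean of the 3 MYB constructs against eGFP called Gfap and Hepacam (2% of all genes called) and, with the block, the same 7 genes as MYBtr with the block (7.07% of all genes).

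**Figure D1:**
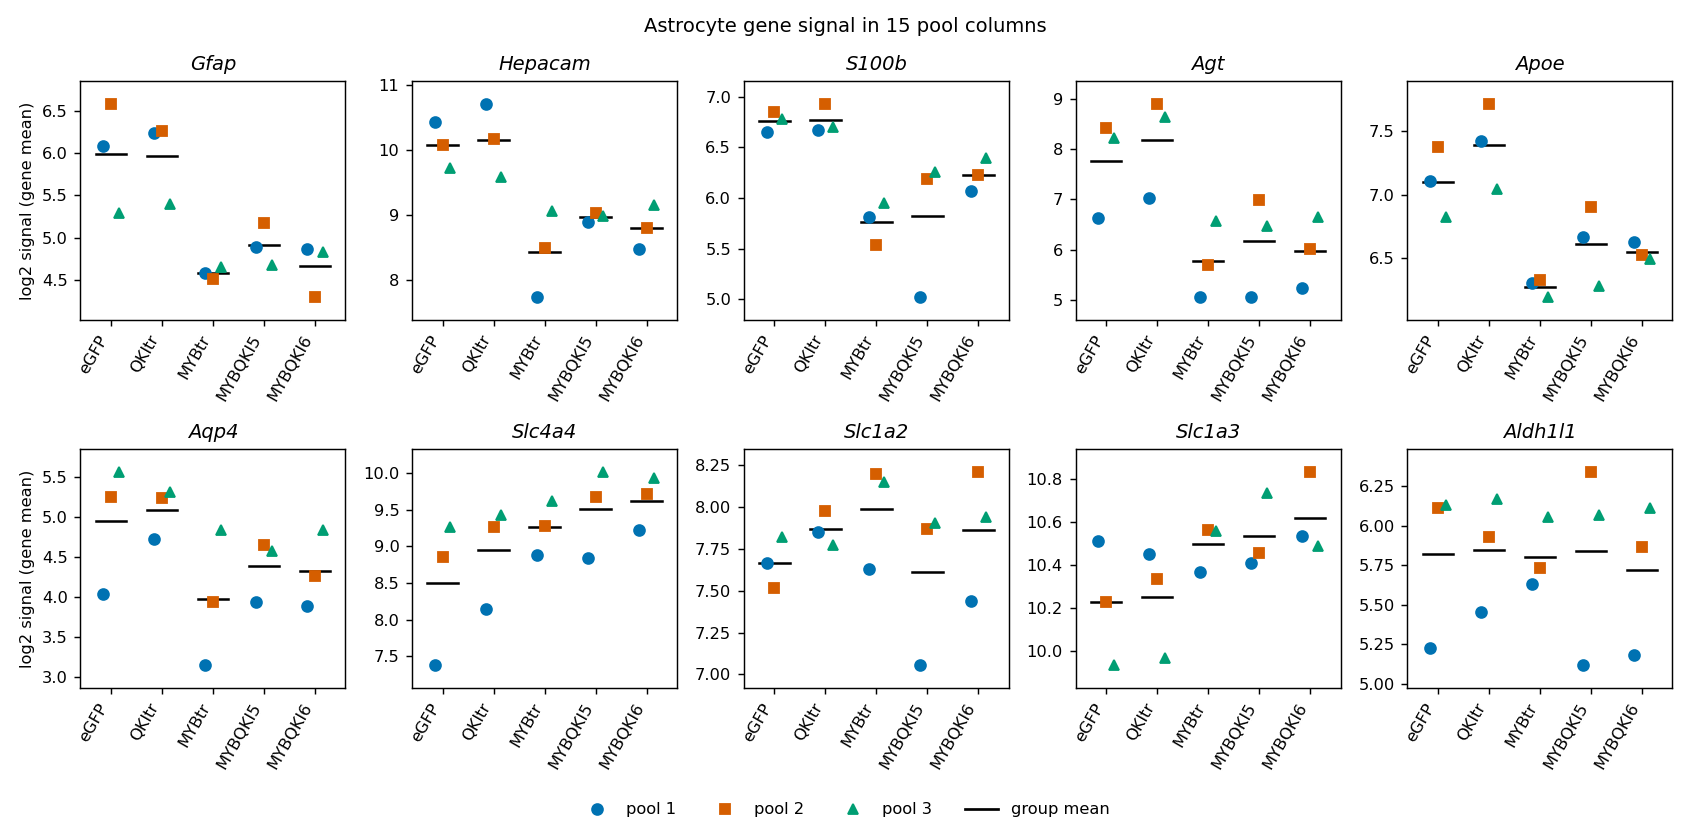
Log2 signal (vertical axis, gene mean over probe sets) of the 10 genes in the 5 construct groups (horizontal axis), with 1 point per pool, shaped and coloured by pool, and a line at each group mean of 3 columns; each panel has its own vertical scale. For Gfap, Hepacam and S100b all 9 MYB construct columns lie below the 3 eGFP and the 3 QKItr columns, while for Agt, Aqp4, Slc4a4 and Aldh1l1 pool 1 lies lowest in each group.

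Gfap, the intermediate filament protein, fell with MYBtr. Its log2 signal in pools 1, 2 and 3 was 6.09, 6.58 and 5.29 with eGFP and 4.59, 4.52 and 4.66 with MYBtr. It was 4.89, 5.17 and 4.68 with MYBQKI5 and 4.86, 4.30 and 4.83 with MYBQKI6. With QKItr it was 6.24, 6.26 and 5.40. All 9 MYB construct columns were below all 6 columns of eGFP and QKItr, and pool 3 was the lowest of the eGFP and of the QKItr columns. The log2 change against eGFP was -1.40 ± 0.30 (SE) with MYBtr, 2.63-fold lower (adjusted p = 0.0326), -1.07 ± 0.30 with MYBQKI5 (adjusted p = 0.217, and 0.0400 with the block) and -1.32 ± 0.30 with MYBQKI6 (adjusted p = 0.0599, and 0.00919 with the block). The mean of the 3 constructs gave -1.26 ± 0.24, 2.40-fold lower (adjusted p = 0.0137). The call with MYBtr was lost without pool 1 or pool 2 of eGFP (adjusted p = 0.123 and 0.158) or any 1 of the MYBtr pools (0.117, 0.151 and 0.0512), with the median or the brightest of its probe sets in place of their mean (0.0768 and 0.0655), and with the 2 groups fitted alone (0.114). The call of the mean was lost without pool 1 or pool 2 of eGFP (0.0858 and 0.121). Leaving out a pool dropped 1 column of 1 group only, with no block, so the groups then held unequal pools. Calls over all genes changed in the same settings. With MYBtr they fell from 317 to 74 and 65 without pool 1 or 2 of eGFP. Without pool 1, 2 or 3 of MYBtr they were 82, 52 and 456. They were 179 and 100 with the median or brightest probe set and 37 with the 2 groups alone. For the mean they fell from 464 to 138 and 113 without pool 1 or 2 of eGFP. In bulk samples such as these, fewer cells that express a gene and less RNA per cell cannot be told apart.

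Hepacam, a cell adhesion protein of astrocyte membranes, fell with MYBtr as well. Its log2 signal in pools 1, 2 and 3 was 10.43, 10.08 and 9.71 with eGFP and 7.73, 8.49 and 9.06 with MYBtr. With MYBQKI5 it was 8.89, 9.02 and 8.98, with MYBQKI6 8.47, 8.79 and 9.14, and with QKItr 10.71, 10.17 and 9.59. No MYB construct column reached an eGFP or QKItr column, and the gap was widest in pool 1 and narrowest in pool 3. The log2 change was -1.65 ± 0.32 with MYBtr, 3.13-fold lower (adjusted p = 0.0224), -1.11 ± 0.32 with MYBQKI5 (adjusted p = 0.257, and 0.0969 with the block) and -1.27 ± 0.32 with MYBQKI6 (adjusted p = 0.103, and 0.0376 with the block). The mean of the 3 constructs gave -1.34 ± 0.26 (adjusted p = 0.0158). The call with MYBtr was lost without pool 1 or pool 2 of eGFP (adjusted p = 0.107 and 0.0907) or of MYBtr (0.104 and 0.109), or with the 2 groups fitted alone (0.109), and that of the mean without pool 1 or pool 2 of eGFP (0.119 and 0.0917). In each of these settings fewer of all genes were called too, as given for Gfap.

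Promoters are shown for Gfap and Hepacam, the genes called lower in the fit without a block, for S100b, whose columns separated in the same way, and for Slc1a3, which was not called, so that their sequences can be set beside each other. They are the 250 bases before the RefSeq start site in GRCm38.p6, 5′ to 3′ on the strand of the gene. Capitals mark matches, on either strand, to the MYB-type letters CAACNG or TAACNG or to the STAT-type letters TTCNNNGAA.
Gfap, chr11:102897201-102897450, minus strand: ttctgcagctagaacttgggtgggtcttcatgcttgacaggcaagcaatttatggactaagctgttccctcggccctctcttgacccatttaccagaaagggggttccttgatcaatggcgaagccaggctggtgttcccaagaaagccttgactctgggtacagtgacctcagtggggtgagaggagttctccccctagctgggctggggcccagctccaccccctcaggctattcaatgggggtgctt
Hepacam, chr9:37367356-37367605, plus strand: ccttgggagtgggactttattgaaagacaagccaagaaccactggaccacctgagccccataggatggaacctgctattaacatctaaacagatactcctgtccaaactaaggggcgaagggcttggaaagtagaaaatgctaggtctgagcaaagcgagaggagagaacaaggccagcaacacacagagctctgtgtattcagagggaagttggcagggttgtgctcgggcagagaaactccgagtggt
S100b, chr10:76253586-76253835, plus strand: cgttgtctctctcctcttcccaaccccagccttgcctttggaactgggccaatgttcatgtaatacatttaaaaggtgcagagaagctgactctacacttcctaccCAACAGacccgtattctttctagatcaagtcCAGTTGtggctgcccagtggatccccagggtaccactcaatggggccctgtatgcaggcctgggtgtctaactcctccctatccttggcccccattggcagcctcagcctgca
Slc1a3, chr15:8710808-8711057, minus strand: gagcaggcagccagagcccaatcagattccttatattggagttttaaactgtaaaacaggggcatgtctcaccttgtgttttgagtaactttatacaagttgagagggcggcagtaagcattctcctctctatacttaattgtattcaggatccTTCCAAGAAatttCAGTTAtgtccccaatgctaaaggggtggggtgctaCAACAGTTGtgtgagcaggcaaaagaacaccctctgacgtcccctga
The Gfap and Hepacam windows held no match to any of these letters. The S100b window held 2 matches to CAACNG, and that of Slc1a3 held 2 matches to CAACNG, which overlap each other, 1 to TAACNG and 1 to TTCNNNGAA. Promoters of 9 of the 10 genes were examined, and that of Aqp4 was not. Besides these 4, a MYB-type match was found at Slc1a2 and at 1 of the 2 listed starts of Slc4a4, a STAT-type match at Agt, and neither at Aldh1l1 or at the 3 listed starts of Apoe. Of all 32851 promoter windows of this length, 29.3% held CAACNG, 19.8% TAACNG, 43.1% at least 1 of these and 7.0% TTCNNNGAA. Matches of these lengths are descriptions of the letters and not binding sites.

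S100b, a calcium-binding protein of astrocytes, was lower with each MYB construct, but was not called against eGFP without the block. Its log2 signal in pools 1, 2 and 3 was 6.65, 6.85 and 6.78 with eGFP and 6.67, 6.93 and 6.71 with QKItr. It was 5.82, 5.53 and 5.96 with MYBtr, 5.02, 6.19 and 6.26 with MYBQKI5, and 6.07, 6.23 and 6.39 with MYBQKI6. The control columns were close together and all 9 MYB columns were below them, with pool 1 of MYBQKI5 the lowest. The log2 change was -0.99 ± 0.25 with MYBtr (adjusted p = 0.0786, and 0.0127 with the block), -0.94 ± 0.25 with MYBQKI5 (0.195, and 0.0326 with the block) and -0.53 ± 0.25 with MYBQKI6 (0.664, and 0.234 with the block). Gfap, S100b and Hepacam were the 3 of the 10 genes whose 9 MYB columns all lay below the 3 eGFP columns, a pattern of 2.35% of all genes, and the same 3 had all 9 MYB columns below the 6 columns of eGFP and QKItr, a pattern of 1.38%.

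Among the secreted proteins, Agt showed the largest differences of the 10 genes and also a large difference between pools. Agt encodes angiotensinogen, the precursor of angiotensin peptides. Its log2 signal in pools 1, 2 and 3 was 6.62, 8.42 and 8.23 with eGFP and 7.04, 8.90 and 8.64 with QKItr. With MYBtr it was 5.06, 5.69 and 6.56, with MYBQKI5 5.06, 6.99 and 6.47, and with MYBQKI6 5.23, 6.02 and 6.66. Pool 1 was the lowest column of every group, so the eGFP column of pool 1 lay among the MYB columns of the other pools. The log2 change was -1.99 ± 0.63 with MYBtr (adjusted p = 0.189), -1.59 ± 0.63 with MYBQKI5 (0.585) and -1.79 ± 0.63 with MYBQKI6 (0.330). With the pool block the standard error fell to 0.24 and the adjusted p was 4.6e-04, 0.00438 and 0.00117. Within pools the difference from eGFP ran from -2.74 to -1.39 over the 9 MYB columns.

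Apoe, the main lipid-carrying apolipoprotein of the brain, was also lower. In pools 1, 2 and 3 it read 7.10, 7.37 and 6.82 with eGFP, 7.42, 7.71 and 7.04 with QKItr and 6.30, 6.33 and 6.19 with MYBtr. With MYBQKI5 it read 6.67, 6.90 and 6.28 and with MYBQKI6 6.63, 6.53 and 6.49. The MYBtr and MYBQKI6 columns lay below all eGFP columns, and pool 2 of MYBQKI5 lay above the lowest of them. The log2 change was -0.82 ± 0.19 with MYBtr (adjusted p = 0.0525, and 0.00220 with the block), -0.49 ± 0.19 with MYBQKI5 (0.589, and 0.0641 with the block) and -0.55 ± 0.19 with MYBQKI6 (0.327, and 0.0253 with the block).

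Aqp4, the water channel of astrocyte endfeet, was dim and varied between pools. In pools 1, 2 and 3 it read 4.04, 5.25 and 5.56 with eGFP and 4.73, 5.23 and 5.31 with QKItr. It read 3.16, 3.94 and 4.84 with MYBtr, 3.94, 4.65 and 4.57 with MYBQKI5 and 3.89, 4.26 and 4.84 with MYBQKI6. The groups overlapped, with pool 1 lowest in each, but every MYB column was below the eGFP column of its own pool. The log2 change of -0.97 ± 0.43 with MYBtr was called with the block only (adjusted p = 0.465, and 0.0108 with the block), and those of -0.56 and -0.62 with MYBQKI5 and MYBQKI6 were not called in either fit.

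Slc4a4, a sodium and bicarbonate cotransporter, was higher with each MYB construct in every pool, and was called with the block only. In pools 1, 2 and 3 it read 7.38, 8.86 and 9.27 with eGFP and 8.15, 9.27 and 9.43 with QKItr. It read 8.89, 9.28 and 9.62 with MYBtr, 8.84, 9.68 and 10.02 with MYBQKI5 and 9.22, 9.71 and 9.93 with MYBQKI6. Pool 1 was again the lowest of every group, and the groups overlapped. The log2 change was 0.76 ± 0.46, 1.01 ± 0.46 and 1.12 ± 0.46 with MYBtr, MYBQKI5 and MYBQKI6 (adjusted p = 0.730, 0.713 and 0.492), and with the block it was called with each (0.0300, 0.0126 and 0.00466). QKItr was also above eGFP in all 3 pools, by 0.76, 0.41 and 0.17, and against QKItr the mean of the MYB constructs was 0.51 ± 0.37 higher, which was not called (adjusted p = 0.634, and 0.0505 with the block).

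The glutamate transporters Slc1a2 and Slc1a3, which clear glutamate from the synapse, were not called against eGFP in either fit. Slc1a3 read 10.51, 10.23 and 9.94 with eGFP in pools 1, 2 and 3, and its 9 MYB columns lay between 10.36 and 10.83. Its log2 change was 0.27 ± 0.17, 0.31 ± 0.17 and 0.39 ± 0.17 with MYBtr, MYBQKI5 and MYBQKI6 (95% intervals -0.10 to 0.64, -0.07 to 0.68 and 0.02 to 0.76). All MYB columns of pools 2 and 3 were above the eGFP column of their pool, and in pool 1 the differences were -0.15, -0.11 and 0.02. Slc1a2 read 7.66, 7.52 and 7.82 with eGFP and between 7.06 and 8.21 in the MYB columns, with a mean MYB change of 0.15 (95% interval -0.26 to 0.57). Aldh1l1, a folate enzyme used as a marker of astrocytes across the brain, read 5.23, 6.11 and 6.13 with eGFP and between 5.12 and 6.34 with the MYB constructs. Its mean MYB change was -0.03 (95% interval -0.62 to 0.55). Over the 9 MYB columns neither Slc1a2 nor Aldh1l1 kept 1 direction against the eGFP column of the same pool, though with MYBQKI6 alone the differences of Aldh1l1 were all negative (-0.05, -0.25 and -0.02 in pools 1, 2 and 3).

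**Figure D2:**
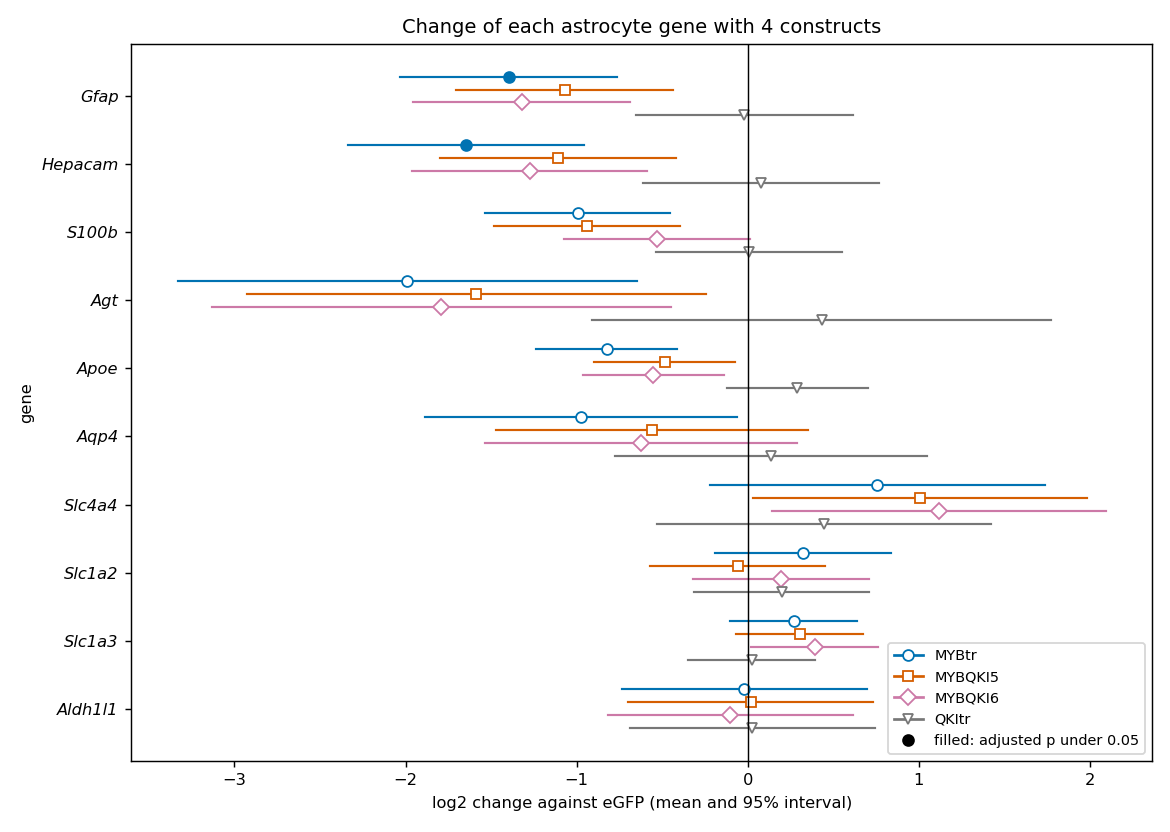
Log2 change against eGFP (horizontal axis) of each of the 10 genes (rows) with MYBtr, MYBQKI5, MYBQKI6 and QKItr, as the fitted mean of 3 against 3 columns with its 95% interval and no pool block; filled symbols have an adjusted p under 0.05. Gfap and Hepacam with MYBtr are filled, the 3 MYB constructs lie on one side of 0 for 8 genes, and all QKItr intervals cross 0.

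Each MYB column can be set against the eGFP column of its own pool. Gfap, Hepacam, S100b, Agt, Apoe and Aqp4 were below eGFP in 9 of 9 such differences, a pattern of 6.98% of all genes. Slc4a4 was above eGFP in 9 of 9, a pattern of 6.02% of all genes. The size differed between pools. For Gfap the difference was -0.63, -0.61 and -0.46 in pool 3 with MYBtr, MYBQKI5 and MYBQKI6 and -2.06, -1.41 and -2.28 in pool 2. For Hepacam it was -0.66, -0.73 and -0.57 in pool 3 and -2.70, -1.54 and -1.96 in pool 1. For Slc4a4 it was 1.45 to 1.84 in pool 1 and at most 0.85 in the other pools. Gfap with eGFP was itself lowest in pool 3 (5.29, against 6.09 and 6.58 in pools 1 and 2). Its MYB columns lay between 4.30 and 5.17 over all pools. For comparison, the 2 repeat arrays of eGFP within a pool differed by 0.0010 to 0.336 over the 10 genes.

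**Figure D3:**
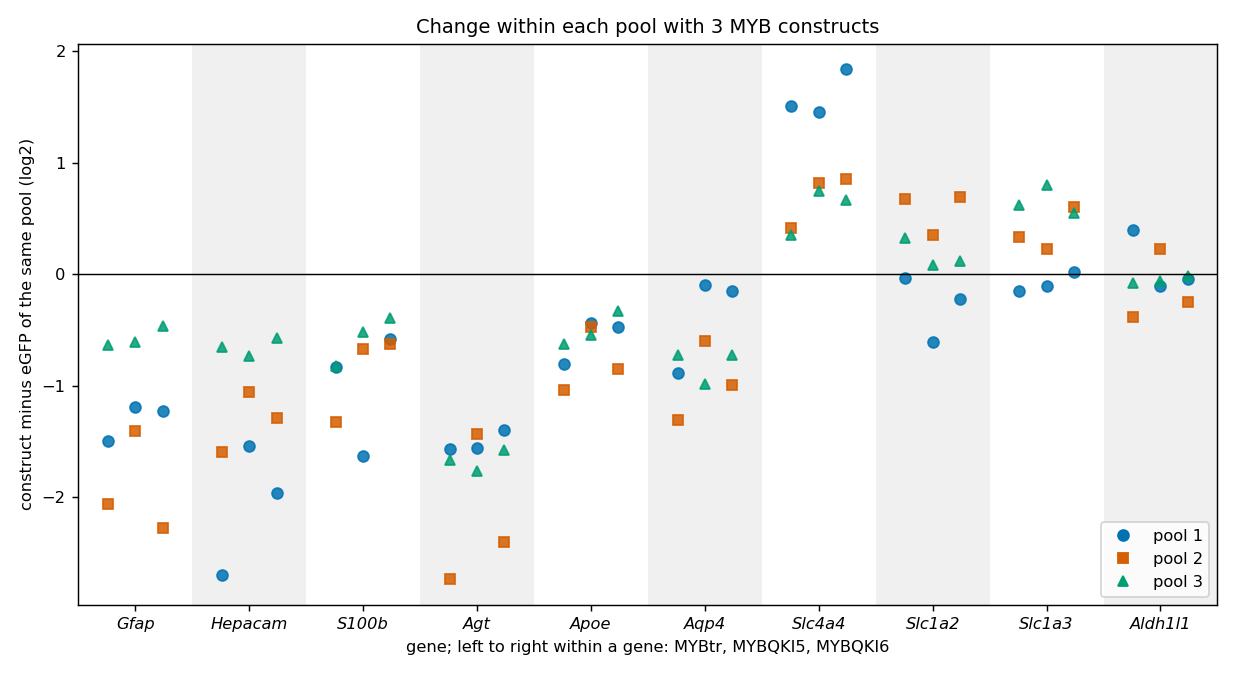
Log2 difference between each MYB construct column and the eGFP column of the same pool (vertical axis) for the 10 genes (horizontal axis), with MYBtr, MYBQKI5 and MYBQKI6 from left to right within a gene and 1 point per pool. All 9 points lie below 0 for Gfap, Hepacam, S100b, Agt, Apoe and Aqp4 and above 0 for Slc4a4, and pool 3 is nearest to 0 for Gfap and Hepacam.

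QKItr is the construct whose label names no MYB. Against eGFP none of the 10 genes was called, in either fit, and none had an unadjusted p under 0.05. No gene of the array was called in this comparison (0% of all genes). The changes ran from -0.02 for Gfap to 0.45 for Slc4a4, with a median of 0.11. The interval was -0.65 to 0.61 for Gfap and -0.61 to 0.77 for Hepacam. It was wider for Agt, from -0.91 to 1.78. Within pools Agt was above eGFP by 0.41 to 0.48 and Apoe by 0.22 to 0.34 in all 3, and neither was called with the block.

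The mean of the 3 MYB constructs was also compared with QKItr. Gfap, S100b, Agt, Apoe and Hepacam were called, all lower, against 2.95% of all genes, and the block added Aqp4 (10.4% of all genes), which gives the same 6 lower genes as the block gave against eGFP. The log2 change was -2.22 ± 0.51 for Agt, 4.66-fold lower (adjusted p = 0.0309), -1.42 ± 0.26 for Hepacam (0.00943), -1.24 ± 0.24 for Gfap (0.0127), -0.91 ± 0.16 for Apoe (0.00637) and -0.83 ± 0.21 for S100b (0.0457). Aqp4 was -0.86 ± 0.35 (0.260, and 0.00408 with the block). This comparison uses the same MYB columns as the one against eGFP. Without pool 2 of QKItr none of the 5 was called (adjusted p from 0.0616 for Hepacam to 0.226 for S100b), and without pool 1 of QKItr only Agt and Apoe were. Without pool 3 of QKItr, or pool 1 or 2 of MYBtr or of MYBQKI6, 3 were called, Gfap, Apoe and Hepacam. With the median of the probe sets Agt and Hepacam were called, and Agt was not called with its brightest probe set (0.0827) or a trended, robust prior (0.0574). Over all genes 682 were called in the main fit, 212 without pool 2 of QKItr and 313 without pool 1 of QKItr. Without pool 1 or 2 of MYBtr 572 and 480 were, and without pool 1 or 2 of MYBQKI6 546 and 489. With the median or the brightest of the probe sets 448 and 304 were, and with a trended, robust prior 685.

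The MYB constructs were then compared with each other. No member was called for MYBQKI5 against MYBtr (0% of all genes), MYBQKI6 against MYBtr (0%) or MYBQKI6 against MYBQKI5 (0%), in either fit, and no member had an unadjusted p under 0.05. Against MYBtr, 9 of the 10 genes were higher with MYBQKI5 and 8 with MYBQKI6, with median differences of 0.29 and 0.24, beside -0.0067 and 0.0020 over all genes. Some other lists leaned the same way with MYBQKI5. Higher were 22 of 24 further astrocyte, 11 of 12 microglia and immune, 10 of 12 oligodendrocyte precursor and 10 of 13 neuron markers. Of neural stem cell markers 6 of 11 were, and of vascular and fibroblast markers 6 of 14. For Hepacam MYBQKI5 was 0.54 above MYBtr (95% interval -0.15 to 1.23), and for Gfap 0.33 above it (-0.31 to 0.96). Intervals of this width do not show that the constructs act alike.

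Single probe sets, which lie at different parts of a gene, moved together for some members and not for others. Against eGFP, the 10 probe sets of Hepacam, the 4 of S100b, the 7 of Agt and the 8 of Aqp4 were all lower with each MYB construct. The mean MYB change ran from -1.61 to -1.09 over the probe sets of Hepacam and from -0.90 to -0.67 over those of S100b. For Gfap it ran from -2.62 to -0.12 over 13 probe sets, whose eGFP signal ran from 3.45 to 7.85. Of the 26 probe sets of Slc4a4, 25 were higher in the mean, 14 of 15 of Slc1a3, 15 of 19 of Slc1a2 and 7 of 14 of Aldh1l1. Brightness of different probe sets is not a measure of abundance.

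Few of these probe sets were called on their own, where the adjustment ran over all 269751. With MYBtr 3 were called, all of Gfap (0.185% of all probe sets), and with the block 10 (0.533%), namely the 3 of Gfap, 3 of Apoe, 3 of Agt and 1 of S100b. None was called with MYBQKI5 (0.0652%), MYBQKI6 (0.113%) or QKItr (0.00222%), and with the block 2 were called with MYBQKI6, 1 of Slc4a4 and 1 of Agt (0.301%). The mean of the MYB constructs called 4, 3 of Gfap and 1 of Hepacam (0.356%), and with the block 25 (1.1%), of which 9 were of Slc4a4, 5 of Gfap and 5 of Agt. Probe set 17270360 of Gfap read 6.62, 7.24 and 5.44 with eGFP in pools 1, 2 and 3, 3.04, 3.96 and 2.60 with MYBtr, and 6.42, 6.90 and 5.52 with QKItr. Its log2 change with MYBtr was -3.24 ± 0.54 (adjusted p = 0.0335). These MYBtr values lay near or below 3.84, the lower-quartile probe set signal with eGFP, so the size of this change is uncertain. Probe sets 17270364 and 17270362 of Gfap changed by -2.99 ± 0.43 (0.0133) and -1.85 ± 0.33 (0.0459), and 17270361, the brightest of Gfap, by -1.68 ± 0.38 (0.133, and 0.0603 with the block). Probe set 17516038 of Hepacam changed by -1.48 ± 0.28 in the mean of the MYB constructs (0.0491), and 17516040, its brightest, by -1.21 ± 0.25 (0.0711). Among the brightest probe sets of the other genes, 17234498 of S100b changed by -0.90 ± 0.19 (0.0711, and 0.0384 with the block), 17487389 of Apoe by -0.85 ± 0.25 (0.262, and 0.0325 with the block), 17514080 of Agt by -2.63 ± 0.94 (0.467, and 0.0231 with the block) and 17438865 of Slc4a4 by 0.99 ± 0.36 (0.506, and 0.0324 with the block).

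Whether the probe sets of a gene changed unequally was tested with diffSplice of limma. No member was called for the mean of the MYB constructs (0.398% of 20833 genes with several probe sets), with Gfap at adjusted p = 0.0730. With the block Gfap (0.00919) and Apoe (0.0228) were called, beside 0.835% of genes. On simulated data of 20833 genes, 100 of them with a probe set shifted by 3 log2 units, this test recovered 88% of the 100. It also made 107 false calls. A test of each probe set's deviation from its gene mean, chosen after seeing the data, called no member (0.072% of genes), with an unadjusted p of 0.0145 for Gfap. On the simulated data it recovered 64% of the shifted genes, with 4 false calls.

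**Figure D4:**
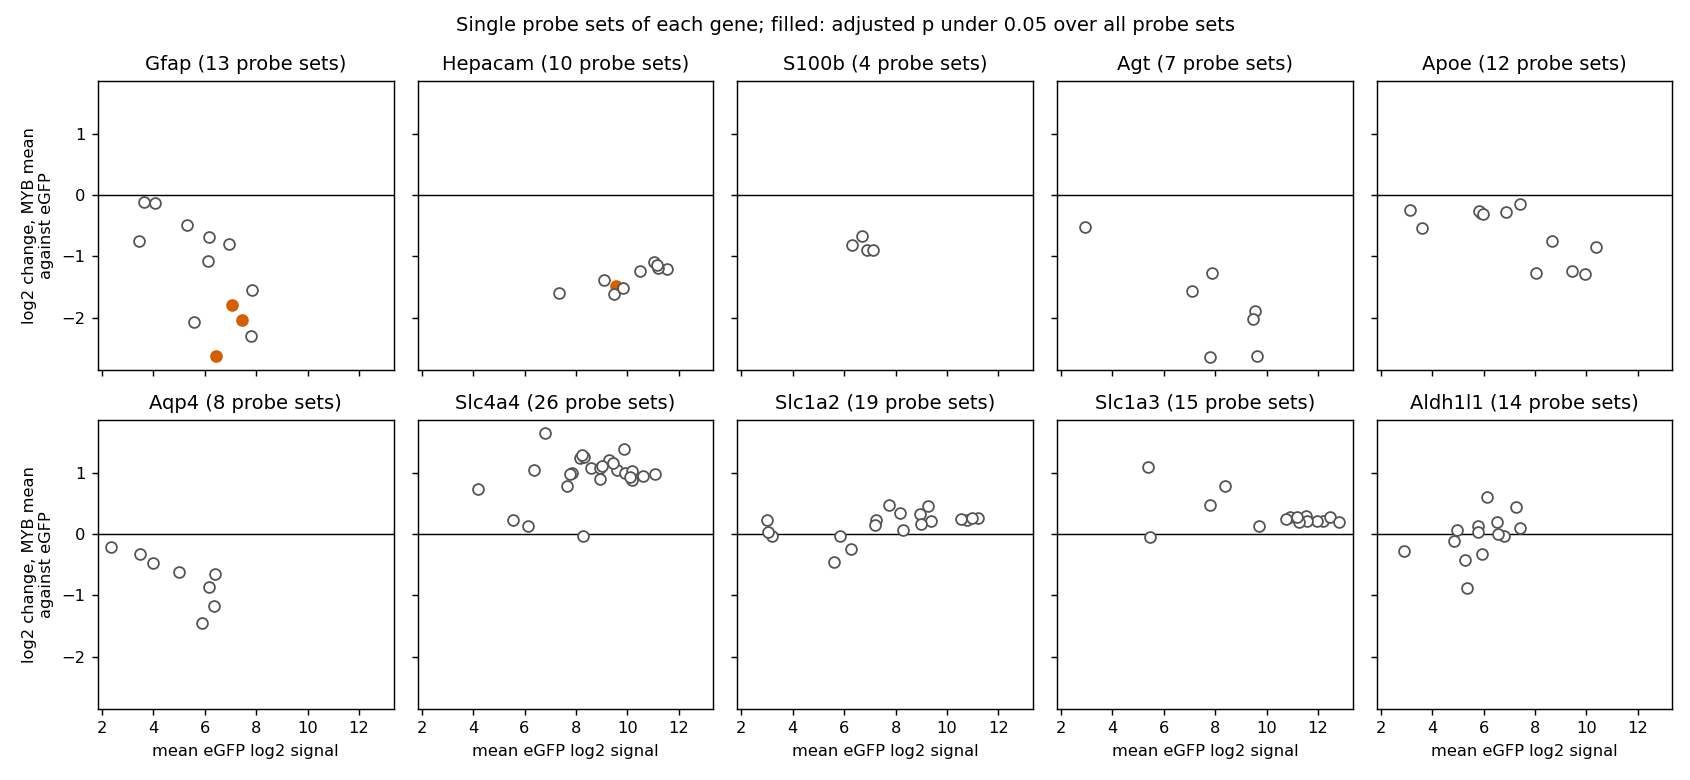
Log2 change of single probe sets for the mean of the 3 MYB constructs against eGFP (vertical axis) by their mean log2 signal with eGFP (horizontal axis), with 1 panel per gene and 1 point per probe set; filled points have an adjusted p under 0.05 over all probe sets. The points of Hepacam and S100b lie close together, those of Gfap spread from -2.62 to -0.12, and 3 points of Gfap and 1 of Hepacam are filled.

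Some other astrocyte genes were lower with the MYB constructs. The gene lists here and below were chosen with earlier results of these data known, so they give no separate support. Of 24 other astrocyte markers measured, 3 were called with MYBtr, all lower, and 21 of 24 changes were negative, with a median of -0.51. These were Ttyh1, a membrane protein of neural stem cells and glia (-1.94 ± 0.31, adjusted p = 0.00987), the glial connexin Gjc3 (-1.86 ± 0.31, 0.0119) and Ndrg2 (-1.11 ± 0.23, 0.0306). With MYBQKI6 Ttyh1 alone was called (-1.62 ± 0.31, 0.0316), and with MYBQKI5 and QKItr none was. With the block 10 were called with MYBtr (9 lower), 5 with MYBQKI5 (4 lower) and 6 with MYBQKI6 (6 lower), and the 1 called higher was Slc39a12, a zinc transporter. Kcnj10, a potassium channel of endfeet named here after its values were seen, changed by -1.88 ± 0.59 with MYBtr and was called with the block only (0.188, and 0.00493 with the block).

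Genes of the signals that drive astrocyte differentiation included receptors and transcription factors upstream of Gfap. Of 23 measured, 2 were called with MYBtr, both lower, and with the block 9 were, 7 lower and 2 higher (Nfix and Smad1). With MYBQKI5 and MYBQKI6 the block called 2 lower in each and 1 and 2 higher. Those called without the block were Lifr, a receptor subunit of the LIF and CNTF cytokines (-1.25 ± 0.22, adjusted p = 0.0154), and Stat3, the transcription factor those receptors activate (-1.002 ± 0.19, 0.0216). Lifr was also called with MYBQKI5 (-1.26 ± 0.22, 0.0403) and MYBQKI6 (-1.30 ± 0.22, 0.0143), and Stat3 changed by -0.79 and -0.88 and was called there with the block only (0.0237 and 0.00903). In the mean of the MYB constructs Nfix, a transcription factor that promotes glial genes, was called higher (0.59 ± 0.11, 0.0156). Against QKItr the ciliary neurotrophic factor receptor Cntfr was called lower as well (-0.63 ± 0.15, 0.0355). Il6st (gp130), Jak1 and Socs3 of the same list were called in no comparison, in either fit. The median change of the 23 genes with MYBtr was -0.15, beside -0.014 over all genes, and 7 of the 23 changes were positive.

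Among 13 endfoot and water channel partners, Dtna, a dystrophin-associated scaffold protein that anchors Aqp4, was called lower with MYBtr (-0.75 ± 0.13, adjusted p = 0.0159) and MYBQKI6 (-0.65 ± 0.13, 0.0401), and with MYBQKI5 with the block only (-0.62 ± 0.13, 0.0847, and 0.0213 with the block). With the block 3 of the 13 were lower with MYBtr, 2 with MYBQKI5 and 3 with MYBQKI6, namely Dtna and Kcnj10 with each and Gpr37l1 with MYBtr and MYBQKI6. Of 12 lipoprotein partners of Apoe none was called against eGFP without the block. Pltp, a phospholipid transfer protein, was called higher with the block with MYBtr (0.88 ± 0.35, 0.386, and 0.0157 with the block) and MYBQKI6 (0.90 ± 0.35, 0.446, and 0.0184 with the block), and without it against QKItr (1.16 ± 0.29, 0.0467). Of 28 family relatives of the members, S100a10, an S100 protein like S100b, was called higher with MYBtr (0.71 ± 0.16, 0.0490). In the mean of the MYB constructs the intermediate filament genes Nes and Vim, relatives of Gfap, went opposite ways, Nes lower (-1.04 ± 0.21, 0.0167) and Vim higher (0.46 ± 0.11, 0.0477). With the block Nes was lower and Vim and S100a10 higher with each MYB construct, and Slc4a2, a relative of Slc4a4, lower with MYBtr. Nes and Vim are also on the list of 11 neural stem cell markers, where they were the 2 called in the mean, and the block added Hes1, lower (-0.50 ± 0.16, 0.167, and 0.00634 with the block).

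Markers of other cell types moved with the same constructs in part. Of 12 oligodendrocyte precursor markers, Cspg4 was called lower with MYBtr (-1.34 ± 0.27, adjusted p = 0.0273) and MYBQKI6 (-1.36 ± 0.27, 0.0369), and with the block 6 were lower with each MYB construct. The mean of the 3 constructs also called Olig2 (-0.62 ± 0.13, 0.0211) and Sox6 (-0.54 ± 0.13, 0.0439) lower, and with the block Pdgfra, the PDGF receptor of these cells, was called higher in that mean (0.67 ± 0.25, 0.302, and 0.0314 with the block). The list's mean signal per column was 6.55 to 6.67 with eGFP and 6.03 to 6.32 over the MYB columns. Of 11 myelinating oligodendrocyte markers, Cnp was called higher with MYBtr and MYBQKI6 (0.79 ± 0.17, 0.0352, and 1.02 ± 0.17, 0.0143), and with MYBQKI5 with the block only (0.79 ± 0.17, 0.0848, and 0.00888 with the block). None of 12 microglia and immune, 14 vascular and fibroblast or 13 neuron markers was called with any construct in the fit without the block, and with the block Cd68 was called lower with each MYB construct, Gad1 with MYBtr and Map2 with MYBQKI6. The mean signal of the microglia and immune list was 4.47 to 4.60 in the eGFP columns, 4.28 to 4.35 with MYBtr and 4.40 to 4.62 with MYBQKI5 and MYBQKI6. The part of other cell types in the differences of the astrocyte genes was not tested.

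By Pearson correlation over the 15 pool columns, which share their pools and arrays, the genes most like Gfap were Prr5l (r = 0.964), Clip2 (0.944), Tmbim1 (0.943), Gm2115 (0.943) and Arhgap12 (0.939). Those most like Hepacam were AW047730 (0.972), Phlpp1 (0.967), Phyhipl (0.964), Ttyh1 (0.959) and Sfxn5 (0.958). Among the members, Gfap and Apoe (r = 0.93), Aqp4 and Agt (0.91) and Gfap and Hepacam (0.87) were most alike over these columns, and Slc1a3 and Agt (-0.62) and Gfap and Slc4a4 (-0.59) the most opposed. Pool differences enter these values: all 5 columns of pool 1 were below their group means for Aqp4, Agt, Slc4a4, Slc1a2 and Aldh1l1.

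In the suppression set, wild-type Qk was to be lowered in cells that carried MYBQKI6. The signal of Qk itself overlapped between the samples labelled as Qk suppressed and those labelled LacZ. Qk read 9.35, 9.30, 9.46, 9.70 and 9.59 there and 9.68, 9.70 and 9.74 in the LacZ samples, a difference of -0.22 that was not called, with 1 labelled Qk sample inside the LacZ range. No direction below can therefore be tied to a loss of Qk RNA.

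None of the 10 genes was called between the samples labelled Qk and LacZ, in either fit, and 1 gene of the array was (0.00432% of all genes). The median change of the 10 was -0.06, beside 0.03 over all genes. S100b read 4.28, 4.14, 4.08, 4.03 and 4.17 in the samples labelled Qk and 4.45, 5.46 and 4.42 with LacZ. All 5 Qk samples were below all 3 LacZ samples, a pattern of 1.39% of all genes and of 1 of the 10, and the LacZ sample at 5.46 stood above the other LacZ samples. The log2 change of -0.63 ± 0.23 had an unadjusted p of 0.0162 and an adjusted p of 0.999. Aqp4 read 5.09, 4.76, 4.74, 4.50 and 5.63 against 5.32, 5.72 and 5.36, and its change of -0.52 ± 0.24 had an unadjusted p of 0.0487 and an adjusted p of 0.999, with 1 Qk sample inside the LacZ range.

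The remaining 8 genes overlapped between these groups. Gfap read 4.11 to 4.60 in the samples labelled Qk and 4.03 to 4.58 with LacZ, a change of 0.02 (95% interval -0.35 to 0.40). Hepacam read 8.01 to 8.29 and 7.46 to 8.21, a change of 0.24 (-0.18 to 0.65). Apoe (0.00), Agt (-0.04), Slc1a2 (0.02), Slc1a3 (-0.08), Slc4a4 (-0.15) and Aldh1l1 (-0.21) all had intervals that include 0. No probe set of a member was called (0% of all probe sets, and none of the array). In diffSplice no member was called (0.326% of genes), with Aldh1l1 at adjusted p = 0.0644, and called with the second title number as a block (0.0215, beside 0.83% of genes). The deviation test called no gene (0%), with an unadjusted p of 3.1e-04 for Aldh1l1. The arrays of the suppression set and the pool set had different medians, and levels were not compared between the sets.

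**Figure D5:**
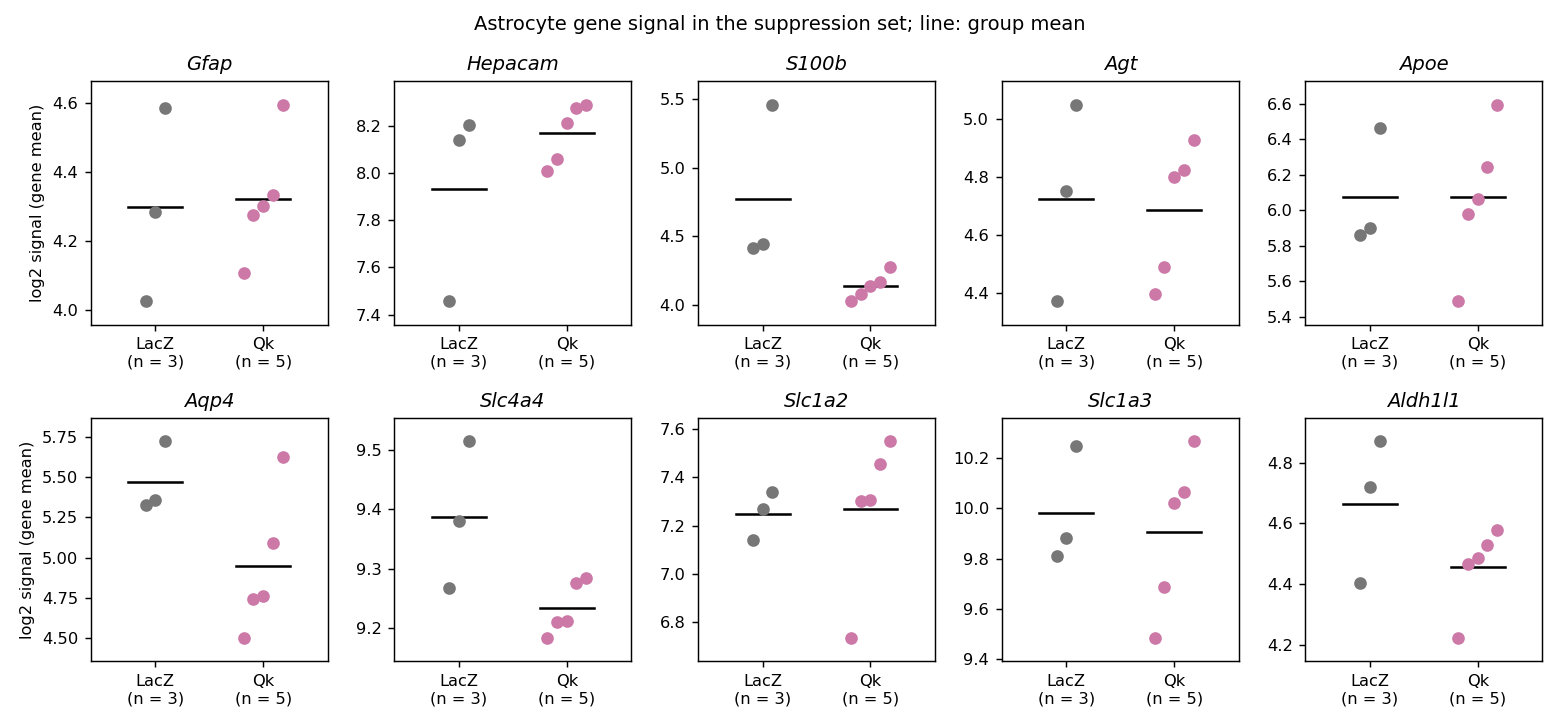
Log2 signal (vertical axis, gene mean over probe sets) of the 10 genes in the 3 LacZ and the 5 labelled Qk samples that also carried MYBQKI6 (horizontal axis), with 1 point per sample and a line at the group mean; each panel has its own vertical scale. S100b is the 1 panel in which all Qk points lie below all LacZ points.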

How the data were processed

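Per the labels, biotin-labelled total RNA of 26 samples was read on Affymetrix arrays. The range of the deposited numbers shows log2 units, and the normalization, array software and genome build are not given in the sources used here. All 269751 probe sets were used, of which 233753 named 1 gene. A gene was the mean log2 value of the probe sets naming it alone, with no filter on dim signal, and old symbols were updated through RefSeq. Group means were fitted in limma 3.58.1 under R 4.3.3 over the 15 columns of the pool set together, and over the 8 arrays of the suppression set apart, with Benjamini-Hochberg adjustment within a comparison. The number of arrays limits the precision.

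The reported fit had no block unless one is named. Same-numbered columns of the pool set correlated at 0.31 to 0.72 after group means were removed (30 pairs, against a median of -0.23 for the others), and same-numbered suppression arrays at 0.22 to 0.57 (5 pairs, against -0.21), so the title numbers pair the samples. The members and lists were chosen with earlier results of these data known. All members were named, with up to 4 called genes of smallest p per list, the 5 genes most like Gfap and Hepacam, Myb and Qk, and called or brightest probe sets of members. In simulated data the MYBtr fit recovered 65.2% of genes changed by 1.0 log2 unit and the Qk fit 52.8%. Figures used matplotlib 3.10.9 under Python 3.11.15.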

Additional observations from a re-analysis of the deposited data

How the results depend on the processing

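Of 179 recomputations of the member changes that were called, 137 were still called and 42 were not. Over all 1707 recomputed member changes, most of them uncalled throughout, 35 gained a call. No called change turned its sign, and 134 recomputed values that were called in neither fit did. Of these 134, 9 moved by at least 1 residual SD. Uncalled values that kept their sign were not sorted by how far they moved. With the replicate block the members called rose to 7 with MYBtr, 4 with MYBQKI5, 5 with MYBQKI6 and 7 for the mean of the MYB constructs against eGFP, the probe sets called to 10 with MYBtr, 2 with MYBQKI6 and 25 for the mean, and the members with unlike probe sets to 2 for the mean and 1 for Qk against LacZ. The shares of all genes called with the block were 5.97% with MYBtr, 2.63% with MYBQKI5, 4.39% with MYBQKI6 and 7.07% for the mean. Taking the median of the probe sets left 1 member with MYBtr and 2 for the mean against QKItr. Over all genes it left 179 calls in place of 317 and 448 in place of 682. S100b, uncalled for the mean against eGFP, was called there with quantile normalization (adjusted p in limma = 0.0381), arrays centred on the median (0.0365), its brightest probe set (0.0251) and dim features left out (0.0409), and with MYBtr with its brightest probe set (0.0303). Against QKItr it was not called with either eGFP repeat alone (0.0531 and 0.0517). Apoe was called with MYBtr with dim features left out (0.0344), a trended, robust prior (0.0497) and the second eGFP repeat only (0.0473), and for the mean against eGFP with dim features left out (0.0395). Leaving out dim features gave 1 member with MYBQKI6 and 4 for the mean against eGFP, and 7, 1 and 11 probe sets with MYBtr, MYBQKI6 and the mean. A trended, robust prior gave 7, 1 and 9 probe sets. With dim features left out, 252 and 577 of 11576 genes were called with MYBQKI6 and for the mean. The main fit called 177 and 464 of 23152. Fitting MYBtr and eGFP alone left 0 members and 0 probe sets, and over all genes 37 calls in place of 317. With the second eGFP repeat only, 1 member had unlike probe sets in the mean. The cause of these shifts was not tested. Fewer features entered when dim ones were left out, and fewer samples when 2 groups were fitted alone.

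Leaving out 1 replicate at a time gave 0 to 2 members with MYBtr, 0 to 1 with MYBQKI6, 0 to 4 for the mean against eGFP and 0 to 5 for the mean against QKItr. It gave 0 to 3 probe sets with MYBtr and 0 to 8 for the mean, and 0 to 1 members with unlike probe sets both for the mean and for Qk against LacZ (1 without the first LacZ sample). Without pool 3 of eGFP, Gfap was called with MYBQKI6. Calls over all genes changed in these fits too. With MYBtr they were 52 to 456 in place of 317, and with MYBQKI6 69 without pool 3 of eGFP in place of 177. For the mean against eGFP they went from 464 to 113 without pool 2 of eGFP and to 598 without pool 3 of MYBtr. For the mean against QKItr they went from 682 to 212 without pool 2 of QKItr and to 926 without pool 3 of MYBtr. Depth has no counterpart on arrays; the dim probe sets of Aqp4 and Gfap limit what their means can show.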
